A study of Micropterus salmoides with 6 samples.

Results

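The genes described here encode the enzymes that break glucose down to pyruvate and lactate, rebuild glucose from smaller molecules, and make and break glycogen. They were chosen by gene symbol: a fixed pattern of enzyme names (hexokinases, phosphofructokinases, aldolases and so on) was matched against the symbol column of the count table. The pattern caught 46 of 27166 genes. One of them, pkmyt1, shares only its first letters with pyruvate kinase M and encodes a kinase of the cell cycle, so 45 genes are described. Of these, 44 had 10 or more counts in at least 3 libraries, and the same 44 were tested. The remaining gene, the liver glycogen synthase gene gys2, had between 0 and 8 counts per library and was not tested.

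RNA came from whole bodies of largemouth bass (Micropterus salmoides) larvae after 12 days of feeding. The SP_L group had received a diet with 0% added phospholipid, and larvae with visible skeletal deformity were picked from it. The SP_H group had received a diet with 8% phospholipid, and normal larvae were picked from it. Each group had 3 libraries, each from 30 pooled larvae of a tank, with 14958887 to 16922264 counts per library. Diet and deformity are thus confounded and cannot be told apart here. In whole-body RNA, fewer cells of a type and less RNA per cell cannot be told apart either.

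Glycolysis converts glucose to pyruvate through a chain of enzymes, and lactate dehydrogenase regenerates the cofactor that lets the chain run without oxygen. Gluconeogenesis runs the chain backwards and bypasses its irreversible steps with separate enzymes, mainly in liver and kidney. Glycogen is the stored form of glucose, built by glycogen synthase and branching enzyme and taken apart by phosphorylase and debranching enzyme. In mammals and fish many steps are served by several genes, some of which in mammals are typical of muscle, liver or brain. Fast fish muscle depends heavily on glycogen and glycolysis during bursts of swimming. Many teleost genes exist as pairs (written a and b) from a genome duplication.

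The glycolytic genes covered a wide range of levels. Among the genes caught by the pattern, which may leave out isozymes of a step, the glyceraldehyde-3-phosphate dehydrogenase and aldolase steps were the most abundant. Levels of different genes are compared as FPKM, read counts per gene length and library total. The most abundant were gapdh, glyceraldehyde-3-phosphate dehydrogenase, at 2162 ± 246 FPKM in SP_L and 1806 ± 49.5 FPKM in SP_H (SD, n = 3 each), and the muscle-type aldolase gene aldoab at 1655 ± 276 FPKM in SP_L and 1572 ± 42.1 FPKM in SP_H. Their ranges over the 6 libraries overlapped: 1755 to 2440 FPKM for gapdh and 1339 to 1847 FPKM for aldoab. The next in order were ldha, tpi1b, pgam2 and eno1a, whose ranges overlapped one another (means over all libraries of 537, 472, 459 and 427 FPKM). In all, 12 of the tested genes averaged 100 FPKM or more and 17 averaged under 10 FPKM. The lowest was pck1, a gluconeogenic gene, at 2.19 ± 0.434 FPKM in SP_L and 1.16 ± 0.586 FPKM in SP_H. All 45 genes together took 1.42 ± 0.155% of all counts in SP_L and 1.35 ± 0.0395% in SP_H. SP_L library 2 was the lowest SP_L library in 10 of the 12 most abundant genes, and SP_H library 1 was the lowest SP_H library in 9. The values without SP_L library 2 are given below for the genes it moves most.

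**Figure D1:**
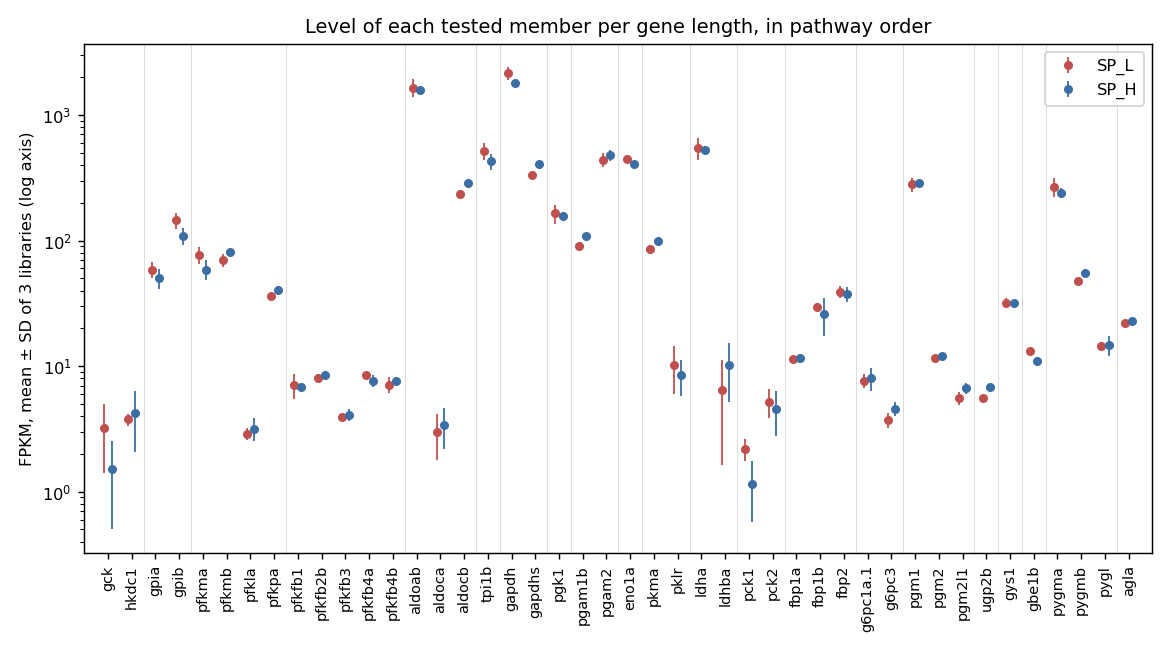
FPKM of the 44 tested genes in pathway order, as the mean and SD of 3 SP_L (red, left) and 3 SP_H (blue, right) libraries, on a log axis. The genes span from gapdh, at 2162 FPKM in SP_L, to pck1, at 2.19 FPKM in SP_L, and for most genes the groups lie close together.

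The comparison asked which of these genes differed between deformed larvae without added phospholipid and normal larvae with it. None passed the gene test: edgeR's quasi-likelihood test, adjusted over all 20627 tested genes, called 0 of 44 at 0.05 (smallest adjusted p = 0.113), against 0.0679% of all tested genes (0.0582% higher and 0.0097% lower in SP_L). Most of the genes nevertheless had higher estimates in SP_L. The log2 fold changes below divide SP_L by SP_H and carry the standard error of the edgeR fit. Of the 44 genes, 30 (68.2%) were positive, against 50.5% of all tested genes, with a median of 0.11 against 0.00 for all genes. At an unadjusted p under 0.05 the count was 10 of 44 (22.7%), with 10 higher and 0 lower in SP_L. Among all tested genes 12.7% reached that level, 6.90% higher and 5.84% lower. Limma-voom called 0. DESeq2, at an adjusted p under 0.05, called 4 higher and 0 lower: gapdh, gpib, pfkma and gbe1b. Its adjustment covered 19824 genes, of which it called 2.27% (1.64% higher and 0.626% lower).

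The libraries of the groups did not overlap for 9 genes higher in SP_L (20.5%), against 9.64% of all tested genes, and for 3 genes lower in SP_L (6.82%), against 9.46%. Together these are 12 of 44, against 19.1% of all tested genes. Overlap of single genes was judged on CPM, read counts scaled to TMM-adjusted library size. In FPKM, which uses the library total, eno1a overlapped (430 to 456 in SP_L, 395 to 432 in SP_H). So did tpi1b (424 to 581 in SP_L, 357 to 471 in SP_H), gpib, pfkma, pck1, pfkfb4a and gys1. On that scale gapdh and gbe1b stayed higher in every SP_L library. The genes gapdhs, pgam1b and ugp2b stayed lower in every one, and aldocb, pkma, pygmb and pfkmb were lower there too. Among these genes, more were thus lower than higher without overlap in FPKM, the reverse of CPM. The share of all tested genes without overlap was not computed on that scale. The direction of the list depended on the scaling. With library size alone in place of TMM, all tested genes had a median of -0.13, the 44 genes one of -0.02, and 20 of 44 were positive. At an unadjusted p under 0.05 that fit had 5 higher and 6 lower. Relative to all genes the median was 0.11 under either scaling. Leaving out SP_H replicate 1 moved the median to 0.17, and 35 of 44 genes kept their sign whichever library was left out.

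**Figure D2:**
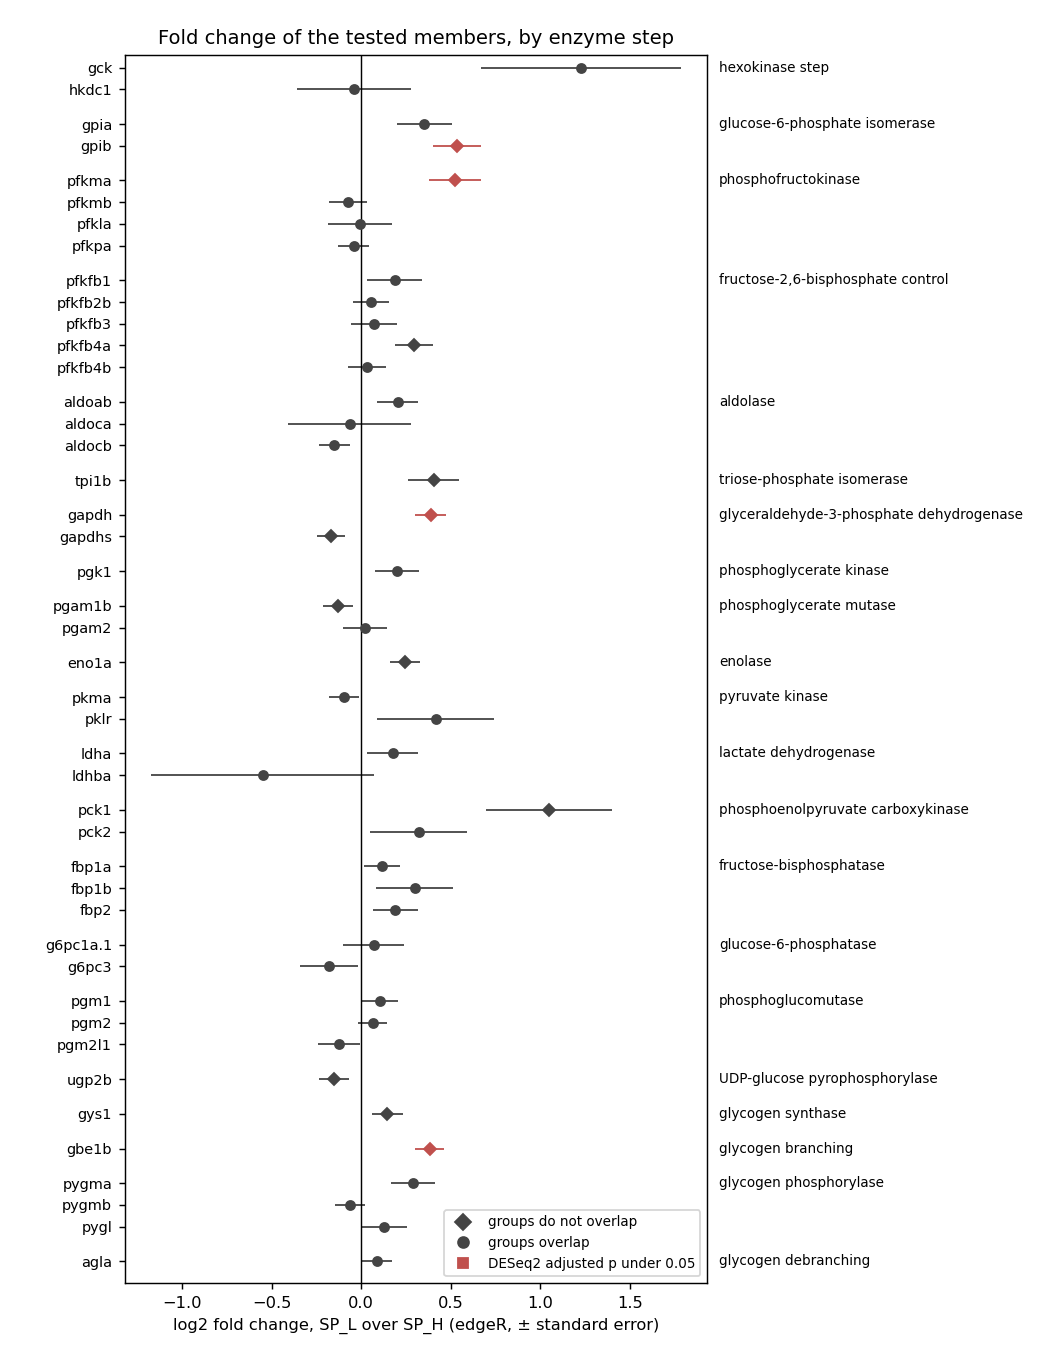
The log2 fold change of SP_L over SP_H with its standard error for each tested gene, grouped by enzyme step from glucose entry at the top to glycogen breakdown at the bottom. Diamonds mark genes whose libraries do not overlap between groups in TMM-scaled counts. Red marks the 4 genes with a DESeq2 adjusted p under 0.05, all to the right of zero.

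The first step, phosphorylation of glucose, was represented by hkdc1, a hexokinase-like enzyme gene, and gck, glucokinase, the liver enzyme that responds to blood glucose in mammals. Both were low and uneven between libraries. The pattern also covers hexokinases 1 and 2, but no gene with such a symbol was caught, so the step may be incomplete here. The hkdc1 gene had 14.3, 17.5 and 16.03 CPM (read counts scaled to TMM-adjusted library size) in SP_L libraries 1 to 3, against 24.5, 16.7 and 7.91 CPM in SP_H libraries 1 to 3. SP_H libraries 1 and 3 lay on either side of the SP_L libraries and SP_H library 2 among them, and the log2 fold change was -0.04 ± 0.32 (edgeR adjusted p = 0.976), turning to 0.37 without SP_H replicate 1. The gck gene had 7.91, 10.9 and 2.76 CPM in SP_L, against 2.95, 1.12 and 5.19 CPM in SP_H. Its estimate, 1.23 ± 0.56, was the highest of the 44 genes, but the groups overlapped, since the lowest SP_L library was below 2 SP_H libraries (edgeR adjusted p = 0.401).

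Glucose-6-phosphate isomerase, the next enzyme, is encoded by gpia and gpib, and both had higher estimates in SP_L. The gpib gene had 340.4, 262 and 322 CPM in SP_L, against 186, 205 and 248 CPM in SP_H. Every SP_L library was above every SP_H library, with a log2 fold change of 0.53 ± 0.13, a fold of 1.45 (edgeR adjusted p = 0.142, DESeq2 adjusted p = 0.00839). The gpia gene had 122, 149 and 109.6 CPM in SP_L, against 99.8, 118 and 80.1 CPM in SP_H, with overlap and an edgeR estimate of 0.35 ± 0.16 on the log2 scale (adjusted p = 0.390). The genes alternated between libraries: SP_L library 2 was the highest of its group in gpia and the lowest in gpib, and SP_H library 3 was the lowest of its group in gpia and the highest in gpib. Their summed level was more even than either alone, at 213, 189.6 and 209 FPKM in SP_L, against 147, 163 and 170.3 FPKM in SP_H, and the groups did not overlap in it.

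Phosphofructokinase commits sugar to glycolysis, and of its 4 tested genes pfkma alone had an unadjusted p under 0.05. The pfkma gene, one of a pair of muscle-type subunit genes, had 228, 177 and 232 CPM in SP_L, against 161, 119 and 163 CPM in SP_H. The groups did not overlap, and the log2 fold change was 0.52 ± 0.15, a fold of 1.44 (edgeR adjusted p = 0.176, DESeq2 adjusted p = 0.0220). Its partner pfkmb had 292, 235 and 276 CPM in SP_L, against 279.9, 305 and 261 CPM in SP_H, overlapping values with a log2 fold change of -0.08 ± 0.11. The platelet-type gene pfkpa (-0.04 ± 0.09) and the liver-type gene pfkla (-0.01 ± 0.18) were near zero. In SP_L pfkma supplied 41.4 ± 1.84% of the summed phosphofructokinase FPKM, against 32.01 ± 4.91% in SP_H (SD, n = 3 each), and pfkmb supplied 37.7 ± 1.06% in SP_L and 44.2 ± 4.09% in SP_H.

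The pfkfb genes encode enzymes that make and remove the signal molecule that switches phosphofructokinase on. All 5 had positive estimates, a direction that turned negative for pfkfb2b, pfkfb3 and pfkfb4b with library size alone. The only one with an unadjusted p under 0.05 was pfkfb4a, with 29.2, 30.2 and 28.8 CPM in SP_L, against 26.9, 23.5 and 21.6 CPM in SP_H. The groups did not overlap, and the log2 fold change was 0.29 ± 0.10 (edgeR adjusted p = 0.275). The other 4 lay between 0.03 and 0.19.

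Aldolase splits the six-carbon sugar, and its genes had estimates of both signs. The muscle-type aldoab had 2972, 2225 and 2935 CPM in SP_L, against 2282, 2460 and 2324 CPM in SP_H. Libraries 1 and 3 of SP_L were above all SP_H libraries and library 2 was below them, so that the log2 fold change was 0.20 ± 0.12 with all libraries (edgeR adjusted p = 0.513) and 0.33 without SP_L replicate 2. The aldolase C genes, typical of brain in mammals, had estimates of -0.15 ± 0.09 for aldocb and -0.06 ± 0.34 for aldoca. The aldocb gene had 517, 513 and 561 CPM in SP_L, against 579.8, 628 and 558 CPM in SP_H, and only the highest SP_L library reached into the SP_H range.

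Triose-phosphate isomerase, which interconverts the products of aldolase, is encoded by tpi1b. It had 892, 647 and 799.9 CPM in SP_L, against 489.7, 636 and 640.4 CPM in SP_H. The groups were separated by a narrow gap, with an edgeR estimate of 0.41 ± 0.14 on the log2 scale (adjusted p = 0.268).

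Glyceraldehyde-3-phosphate dehydrogenase showed opposite estimates in its genes. The gapdh gene, which is widely used as a reference gene, had 3122, 2947 and 3491 CPM in SP_L, against 2357, 2487 and 2468 CPM in SP_H. The lowest SP_L library was above the highest SP_H library, and the log2 fold change was 0.39 ± 0.09, a fold of 1.31 (edgeR adjusted p = 0.118, DESeq2 adjusted p = 0.00723). The gapdhs gene, whose mammalian counterpart is specific to sperm, had 539, 543 and 538 CPM in SP_L, against 599, 638 and 587 CPM in SP_H. All SP_L libraries were below all SP_H libraries, with an edgeR estimate of -0.17 ± 0.08 on the log2 scale (adjusted p = 0.402). The share of gapdh in the summed FPKM of the step was 86.6 ± 1.04% in SP_L and 81.5 ± 0.614% in SP_H.

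**Figure D3:**
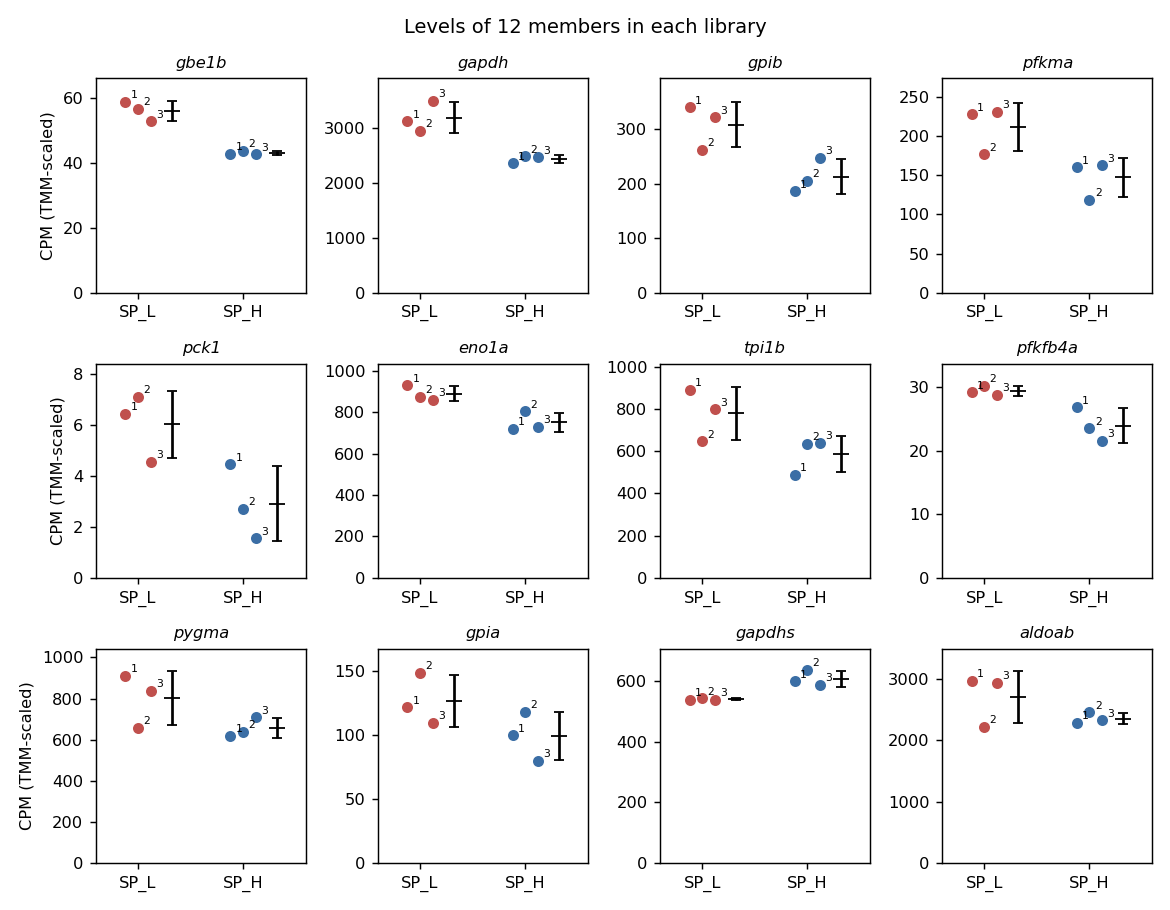
CPM of 12 genes in each library, with SP_L on the left and SP_H on the right of each panel; numbers are library numbers, and the bar beside the points is the mean and SD of 3 libraries. The groups are separate for gbe1b, gapdh, gpib, pfkma, pck1, eno1a, tpi1b and pfkfb4a, with SP_L above, and for gapdhs with SP_L below, while SP_L library 2 lies within the SP_H range in pygma and below it in aldoab.

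The steps from phosphoglycerate kinase to enolase were mixed. The pgk1 gene, whose enzyme makes the first ATP of the pathway, had 409, 296 and 381 CPM in SP_L, against 308, 304 and 333 CPM in SP_H. As for aldoab, library 2 of SP_L was the lowest of all 6, and the log2 fold change was 0.20 ± 0.12 (edgeR adjusted p = 0.546), or 0.33 without SP_L replicate 2. The muscle-type mutase gene pgam2 had 614, 470.2 and 521 CPM in SP_L, against 481, 599 and 505 CPM in SP_H, fully overlapping (0.02 ± 0.12, edgeR adjusted p = 0.971, and -0.11 with library size alone). The brain-type mutase gene pgam1b had 135, 133 and 129.6 CPM in SP_L, against 140.2, 155 and 139 CPM in SP_H. These groups did not overlap, although the log2 fold change was small, -0.13 ± 0.08 (edgeR adjusted p = 0.559). The enolase gene eno1a had 931, 876 and 862 CPM in SP_L, against 721, 806 and 731 CPM in SP_H, with no overlap and an edgeR estimate of 0.24 ± 0.08 on the log2 scale (adjusted p = 0.263).

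The ends of the pathway, pyruvate kinase and lactate dehydrogenase, had overlapping groups in all 4 genes. The pkma gene, pyruvate kinase M, had 285, 262 and 297 CPM in SP_L, against 293, 309.6 and 299 CPM in SP_H (-0.10 ± 0.08, edgeR adjusted p = 0.688). The liver and red cell form pklr spread widely, with 51.7, 44.7 and 20.04 CPM in SP_L, against 30.0, 19.7 and 37.7 CPM in SP_H. Its groups overlapped, at 0.41 ± 0.33 (edgeR adjusted p = 0.651). The ldha gene, the muscle-type subunit that turns pyruvate to lactate, had 1470, 986 and 1347 CPM in SP_L, against 1027, 1184 and 1159 CPM in SP_H. Library 2 of SP_L was again the lowest of all 6, with an edgeR estimate of 0.17 ± 0.14 on the log2 scale (adjusted p = 0.658) and 0.33 without SP_L replicate 2. The heart-type subunit gene ldhba had 17.1, 1.76 and 17.8 CPM in SP_L, against 27.4, 15.8 and 10.3 CPM in SP_H. SP_L library 2, at 28 counts, was far below the other 5 libraries, at 166 to 456 counts. The estimate of -0.55 ± 0.62 went to -0.03 without that library.

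Among the gluconeogenic genes the one with an unadjusted p under 0.05 was pck1, the cytosolic phosphoenolpyruvate carboxykinase that starts the route from amino acids and lactate back to glucose and is induced by fasting in mammals. It had 6.41, 7.09 and 4.53 CPM in SP_L, against 4.45, 2.71 and 1.54 CPM in SP_H. The groups were barely separated, and the log2 fold change was 1.05 ± 0.35, a fold of 2.07 (edgeR adjusted p = 0.249, DESeq2 adjusted p = 0.115). It rested on 69 to 113 counts per SP_L library and 25 to 74 per SP_H library. With each library left out in turn it ran from 0.75, without SP_H replicate 3, to 1.49, without SP_H replicate 1. SP_H library 3, the lowest in pck1, also had the lowest sum of liver markers, 1982 CPM, against 2928 to 3398 CPM in SP_L and 3050.5 to 3261 CPM in the other SP_H libraries; the part of liver content in the pck1 values was not tested.

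The mitochondrial form pck2 had 13.8, 23.5 and 19.2 CPM in SP_L, against 21.9, 11.9 and 11.4 CPM in SP_H, which overlapped (0.32 ± 0.27). Fructose-bisphosphatase reverses the phosphofructokinase step. Its most abundant gene, the muscle-type fbp2, had 122, 101 and 97.4 CPM in SP_L, against 79.1, 101.5 and 100.2 CPM in SP_H (0.19 ± 0.13, edgeR adjusted p = 0.579). The liver-type genes fbp1b (0.30 ± 0.22) and fbp1a (0.12 ± 0.10) also overlapped; fbp1a lies next to fbp2 in the RefSeq gene order. Glucose-6-phosphatase releases free glucose from liver cells, and its catalytic gene g6pc1a.1 had 17.1, 17.4 and 13.1 CPM in SP_L, against 18.6, 13.2 and 13.6 CPM in SP_H. That is 0.07 ± 0.17 (edgeR adjusted p = 0.911), or -0.07 with library size alone. The widely expressed g6pc3 had -0.18 ± 0.16. In all, 6 of the 7 gluconeogenic genes were positive, 4 of 7 with library size alone.

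In glycogen metabolism the branching enzyme gene had the lowest p. Glycogen branching enzyme, gbe1b, adds the side chains that make glycogen compact. It had 58.9, 56.8 and 52.8 CPM in SP_L, against 42.8, 43.8 and 42.6 CPM in SP_H. Both groups were tight and well separated, and the log2 fold change of 0.38 ± 0.08, a fold of 1.30, also had the lowest p of all 44 genes (edgeR adjusted p = 0.113, DESeq2 adjusted p = 0.0457). The muscle glycogen synthase gene gys1 had 113, 109.5 and 125 CPM in SP_L, against 107, 108 and 99.0 CPM in SP_H. Its groups did not overlap but were close, at 0.14 ± 0.09 (edgeR adjusted p = 0.537).

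UDP-glucose is the building block of glycogen. The UDP-glucose pyrophosphorylase gene ugp2b had 28.5, 29.7 and 28.9 CPM in SP_L, against 32.5, 31.9 and 32.4 CPM in SP_H. All SP_L libraries were lower, although the log2 fold change was small, -0.15 ± 0.08 (edgeR adjusted p = 0.496). The phosphoglucomutase gene pgm1, which links glucose-6-phosphate to glycogen, had 758, 596 and 715 CPM in SP_L, against 635, 638 and 650.1 CPM in SP_H, with overlap at 0.11 ± 0.10 (edgeR adjusted p = 0.716; -0.02 with library size alone). The minor genes pgm2 and pgm2l1 had 0.06 ± 0.08 (-0.07 with library size alone) and -0.13 ± 0.12.

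On the breakdown side the muscle phosphorylase genes differed in their estimates. The pygma gene had 910.2, 657 and 837 CPM in SP_L, against 619.5, 639 and 709.5 CPM in SP_H. SP_L library 2 lay within the SP_H range, and the log2 fold change was 0.29 ± 0.12 (edgeR adjusted p = 0.373). It was 0.41 without SP_L replicate 2 and 0.18 without SP_L replicate 1. Its partner pygmb had 187, 187 and 174 CPM in SP_L, against 188, 203 and 182 CPM in SP_H (-0.06 ± 0.08), and the liver phosphorylase gene pygl overlapped as well (0.13 ± 0.13, and -0.01 with library size alone). The debranching enzyme gene agla had 168, 147 and 150.5 CPM in SP_L, against 149.7, 149 and 140.4 CPM in SP_H (0.09 ± 0.09, edgeR adjusted p = 0.735; -0.05 with library size alone).

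The ratio of paired genes within a step does not depend on the scaling of libraries. For each of the 14 steps with at least 2 tested genes, the ratio of FPKM of its 2 most abundant genes was compared between groups by a two-sided exact permutation test. With 3 libraries against 3 the smallest p is 0.1, so no pair could pass 0.05, and 5 of 14 pairs reached that smallest p, with no overlap between the groups. Among single genes, 19.1% of all tested genes had no overlap; the share over gene pairs in general was not computed. The gapdh to gapdhs ratio was 6.35, 5.95 and 7.11 in SP_L, against 4.31, 4.27 and 4.61 in SP_H, a mean log2 difference of 0.55 (exact p = 0.1, 0.28 adjusted over 14 pairs). The pfkmb to pfkma ratio was 0.920, 0.957 and 0.859 in SP_L, against 1.25, 1.84 and 1.15 in SP_H. By FPKM, pfkma was thus the more abundant of these muscle-type phosphofructokinase genes in every SP_L library and pfkmb in every SP_H library. Which gene leads depends on the gene lengths behind the FPKM, whereas the change in the ratio does not. The aldoab to aldocb ratio was 7.90, 5.97 and 7.20 in SP_L, against 5.42, 5.39 and 5.74 in SP_H. The pfkfb2b to pfkfb4a ratio (0.886 to 0.977 in SP_L, 1.06 to 1.17 in SP_H) and the pck2 to pck1 ratio (1.63 to 3.21 in SP_L, 3.35 to 5.61 in SP_H) were both lower in every SP_L library. The pygma to pygmb ratio was 6.18, 4.47 and 6.10 in SP_L, against 4.19, 4.01 and 4.96 in SP_H, with overlap (exact p = 0.2, 0.467 adjusted over 14 pairs). The other 8 pairs overlapped too.

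**Figure D4:**
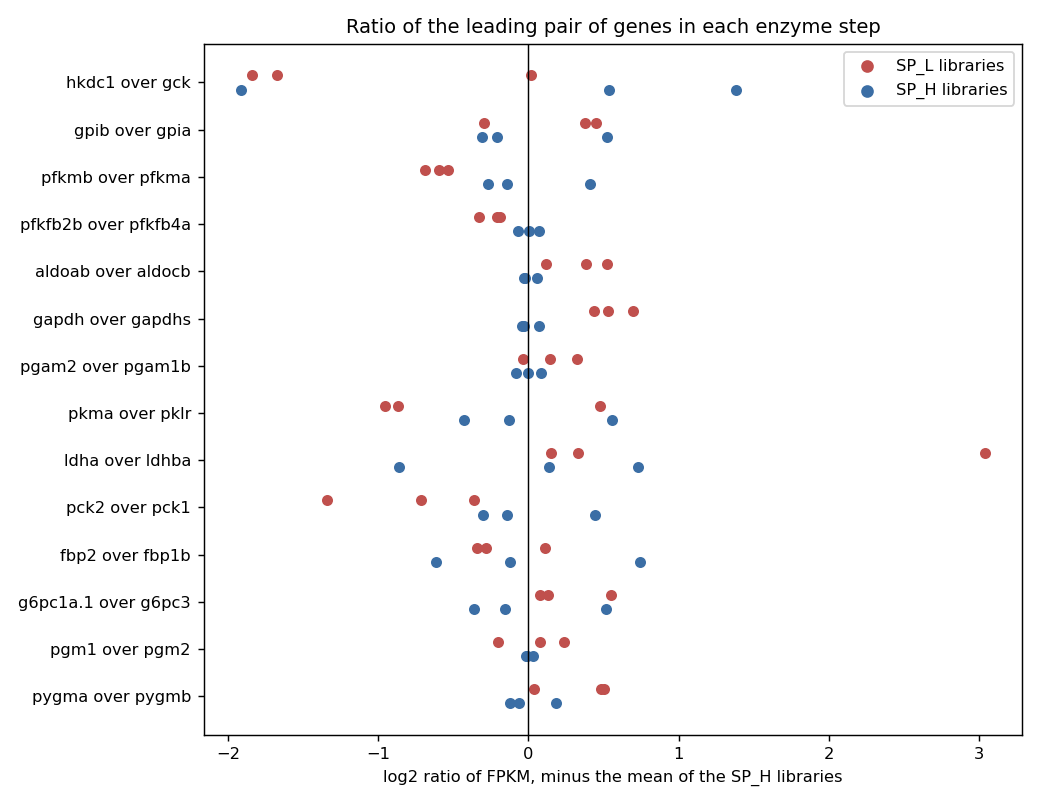
The log2 ratio of FPKM of the 2 most abundant genes of each step in each library, less the mean of the SP_H libraries, with SP_L (red) above SP_H (blue). The groups are separate for pfkmb over pfkma, pfkfb2b over pfkfb4a, aldoab over aldocb, gapdh over gapdhs and pck2 over pck1, and SP_L library 2 stands far to the right in ldha over ldhba.

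Grouped by the tissue in which the mammalian counterpart is typical, the genes had estimates of different sign. Of 9 muscle-type genes 7 were positive, with a median of 0.17 (6 positive and 0.05 with library size alone). These were pfkma, pfkmb, aldoab, pgam2, ldha, fbp2, gys1, pygma and pygmb. Of 10 tested liver-type genes 9 were positive, with a median of 0.24, though only pck1 had groups without overlap (6 positive and 0.12 with library size alone). The liver-type genes were gck, pfkla, pfkfb1, pklr, pck1, pck2, fbp1a, fbp1b, g6pc1a.1 and pygl. Counting the mitochondrial form pck2 (0.32) as liver-type was a choice made here. The 4 genes counted as brain-type, aldoca, aldocb, pgam1b and pfkpa (named platelet-type above), were negative under either scaling, with a median of -0.10. However, aldoca was at 0.21 without SP_L replicate 2. The pyruvate kinase M gene pkma (-0.10) was assigned to no tissue and is not among the muscle-type genes. These groupings were made after the values were seen and are descriptions.

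Summed tissue markers separated the groups for fast muscle and red blood cells and overlapped for liver, intestine, neurons and heart. Only part of each marker list matched a gene symbol: 12 of 21 for fast muscle, 9 of 16 for liver and 5 of 10 for intestine. For neurons 10 of 12 matched, for heart 5 of 6 and for red blood cells 6 of 7. The values below cover only the matched markers, and their signs come from the TMM fit. With library size alone the median of all tested genes was -0.13. The marker signs were not counted under that scaling. Of 12 tested fast muscle markers, 12 were positive with a median of 0.35, and their summed level was 75763 to 88656 CPM in SP_L, against 61473 to 70562 CPM in SP_H. One of them, the muscle creatine kinase gene ckma, passed the edgeR test at 0.78 ± 0.10 (adjusted p = 0.0412), whereas the muscle calcium pump gene atp2a1 (0.01 ± 0.10) and the myosin light chain gene mylpfa (0.09 ± 0.10) were near zero. Of 10 neuron markers 8 were negative, with summed levels of 1223 to 1342 CPM in SP_L and 1260 to 1473 CPM in SP_H. Of 9 liver markers 8 were positive (2928 to 3398 CPM in SP_L, 1982 to 3261 CPM in SP_H), and the 4 tested intestine markers were positive (43.6 to 57.0 CPM in SP_L, 21.5 to 48.4 CPM in SP_H). All 6 red blood cell markers were negative (2450.1 to 3160.2 CPM in SP_L, 4194 to 5060.4 CPM in SP_H), and 3 of 4 tested heart markers were positive (93.3 to 183 CPM in SP_L, 83.5 to 131 CPM in SP_H), with nkx2.5 listed at 0. The part of tissue makeup in the values of the glycolytic genes was not tested.

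SP_L library 2 was low in most of the abundant genes. Among the 12 genes that averaged 100 FPKM or more it was the lowest of the SP_L libraries in 10, against 0 for library 1 and 2 for library 3. Such a position was not particular to this library. SP_H library 1 was the lowest of the SP_H libraries in 9 of the 12 genes, and SP_L library 1 was the highest of the SP_L libraries in 9. In SP_L library 2 the levels of aldoab, ldha, pgam2, pgk1, pgm1, aldocb and gapdhs were below those of every SP_H library. For gapdhs this held in all SP_L libraries, of which library 2 was the highest. For aldocb it held in SP_L library 1 as well. The fast muscle markers of SP_L library 2 summed to 85822 CPM, above every SP_H library. In CPM of gapdh, eno1a, tpi1b and gpib SP_L library 2 remained above every SP_H library. In FPKM this held for gapdh but not for the others. There SP_L library 2 had 430 FPKM of eno1a, against 432 in SP_H library 2. Its tpi1b was at 424 FPKM, against 471 in SP_H library 3, and its gpib was also below SP_H library 3. Without SP_L library 2 edgeR again called 0 of the 44 genes (smallest adjusted p = 0.127, with 10 at an unadjusted p under 0.05). The estimates of gck, gpia, pklr, pck2 and pygl were then lower, at 0.79, 0.22, 0.30, 0.13 and 0.06, and those of gpib, pfkma, tpi1b, pgam2 and pgm1 higher, at 0.64, 0.64, 0.52, 0.10 and 0.20. Pyruvate kinase pkma went to -0.05, and 3 genes had the opposite sign, with pfkmb at 0.01, aldoca at 0.21 and g6pc1a.1 at -0.0064.

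**Figure D5:**
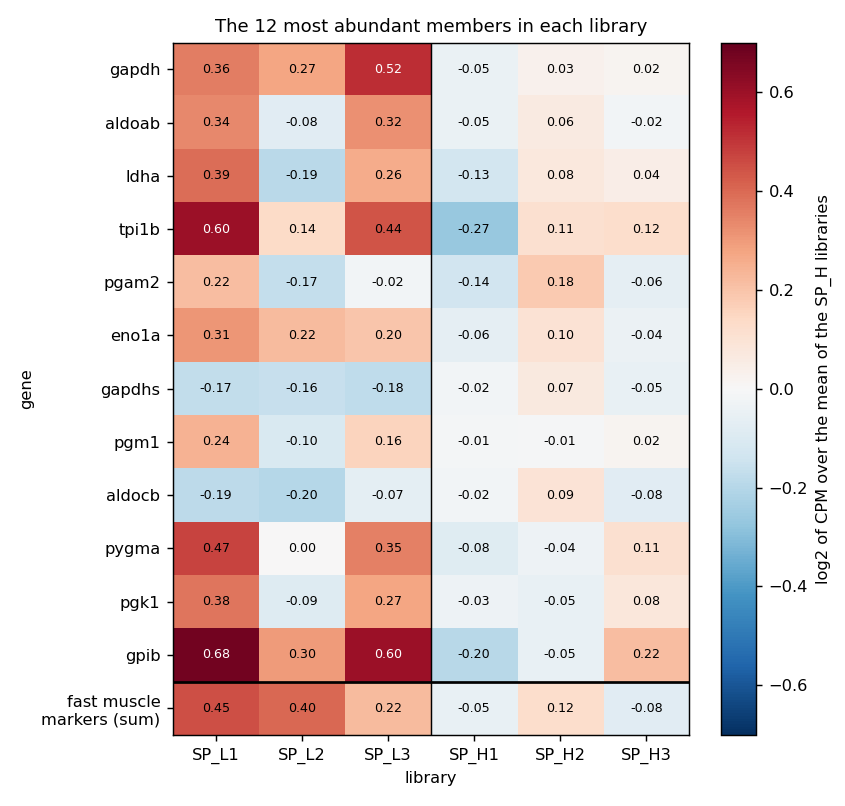
For the 12 genes averaging 100 FPKM or more and the summed fast muscle markers, the log2 of CPM in each library over the mean of the SP_H libraries, with SP_L in the left columns. SP_L libraries 1 and 3 are positive for most genes, SP_L library 2 is negative for aldoab, ldha, pgam2, pgm1 and pgk1, and gapdhs and aldocb are negative in all SP_L libraries.

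Related lists gave the following, each with 0 genes called by edgeR over all genes. For all tested genes the shares were 50.5% positive, 6.90% higher and 5.84% lower at an unadjusted p under 0.05, and 1.64% called higher and 0.626% lower by DESeq2. Of 17 tested genes listed for glycogen control and breakdown, 14 (82.4%) were positive, or 8 with library size alone. The list also holds the glycogenin genes gyg1b and gyg2. It counts pgm3 (0.09 ± 0.12) too, which encodes no enzyme of glycogen metabolism. At an unadjusted p under 0.05, 6 (35.3%) were higher and 1 (5.88%) lower. The DESeq2 calls were 2, both higher. The phosphorylase kinase subunit gene phka1a, whose enzyme activates glycogen phosphorylase, had 142, 149 and 161 CPM in SP_L, against 123, 100.2 and 111 CPM in SP_H. The groups did not overlap (0.43 ± 0.10, edgeR adjusted p = 0.124, DESeq2 adjusted p = 0.0126). The other DESeq2 call was ppp1r3aa (0.95 ± 0.25, edgeR adjusted p = 0.164), a muscle subunit that targets protein phosphatase to glycogen; another targeting subunit gene, ppp1r3g, had 0.75 ± 0.20 (edgeR adjusted p = 0.161).

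Of 10 pentose phosphate genes 6 were positive, or 3 with library size alone, with 1 higher and 2 lower at an unadjusted p under 0.05. The transketolase gene tkta, whose enzyme returns pentose sugars to glycolysis, had 22.2, 39.0 and 32.4 CPM in SP_L, against 44.6, 56.3 and 62.3 CPM in SP_H. Every SP_L library was lower, at -0.80 ± 0.19 (edgeR adjusted p = 0.133, DESeq2 adjusted p = 0.00333). Its paralog tktb had 0.19 ± 0.12, and the phosphogluconolactonase gene pgls -0.48 ± 0.16 (edgeR adjusted p = 0.259).

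Of 17 glucose and lactate transport genes 11 were positive (10 with library size alone), with 0 at an unadjusted p under 0.05; the lowest p belonged to the sodium-glucose transporter gene slc5a2 (0.47 ± 0.23, edgeR adjusted p = 0.441) and the glucose-6-phosphate transporter gene slc37a4a (0.50 ± 0.26, edgeR adjusted p = 0.473). Of 25 hormone and regulator genes 15 (60.0%, against 50.5% of all tested genes) were positive, or 10 with library size alone. At an unadjusted p under 0.05, 7 (28.0%, against 6.90%) were higher and 0 lower (against 5.84%). The 7 were led by the kinase gene sik1, whose product restrains gluconeogenic transcription in mammals (0.49 ± 0.11, edgeR adjusted p = 0.128). Next was the HIF-1 inhibitor gene hif1an (0.43 ± 0.13, edgeR adjusted p = 0.199). Neither gene had overlap between groups. The 7 also include mpc1 and mpc2b, which encode subunits of the mitochondrial pyruvate carrier and are not hormone or regulator genes. Of 12 genes for fructose, mannose and galactose entry 4 were positive and 8 negative (1 positive with library size alone), the lowest p being that of the mannose phosphate isomerase gene mpi (-0.20 ± 0.08, edgeR adjusted p = 0.342), followed by pmm2 (0.19 ± 0.11, edgeR adjusted p = 0.517).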

How the data were processed

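The deposited counts are whole-number read counts per gene, and the deposited FPKM values were made by the authors; in all 44 tested genes they equalled counts over a fixed gene length and the library total, within 1 part in 10000. The tools in the submitters' processing notes are HISAT2, HTSeq, Trimmomatic, StringTie, SAMtools, DESeq, Cufflinks and Bowtie2; how each was used and the strand setting are not stated. The notes name a mouse genome build, in conflict with the bass gene symbols, so no coordinates are given. All 45 genes matched a symbol of the RefSeq table (ASM1485139v1). Isozymes without a matching symbol were not analysed here, and reads of near-identical copies may be split between them.

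Counts were analysed with edgeR 4.0.16 in R 4.3.3: filterByExpr (minimum count 10, minimum total 15), TMM and the quasi-likelihood F test. P-values were adjusted by Benjamini-Hochberg over all tested genes, with a threshold of 0.05. Those of DESeq2 were adjusted over the 19824 genes to which it gave an adjusted p. DESeq2 1.42.0 and limma 3.58.1 (voom, and log2 of FPKM plus 1 or 0.1) were alternatives, with other scalings, filters, a replicate block and each library left out. The main edgeR fit was tested on simulated counts, which were built without a group difference in TMM scaling. The other fits were not tested on simulated data. Between replicates, counts varied 11.1 to 14.7 times as much as sampling alone would give. The labels say pools came per tank, so p-values measure the spread between pools.

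The genes and lists were chosen with earlier results of these data known. Values in every library were given for the 10 genes with an unadjusted p under 0.05, any called by DESeq2, and the most abundant gene of each other step; further genes, among them gck, pfkmb, aldocb, gapdhs, pgam1b, pklr, ldhba, pck2, pygmb and tktb, were added after their values were seen.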

Additional observations from a re-analysis of the deposited data

How the results depend on the processing

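No alternative but DESeq2 called any of the 44 genes: 0 were higher and 0 lower under RLE scaling, library size alone, limma-voom, no filter, the filter of 10 counts in 3 libraries, both limma fits of FPKM and, chosen after seeing the data, robust variance estimation and counting pkmyt1 as a member; leaving out each library also gave 0 to 0 called. DESeq2 called 4 higher. The median log2 fold change of 0.11 was -0.020 with library size alone, -0.022 on log2(FPKM + 1) and -0.022 on log2(FPKM + 0.1), where that of all tested genes was -0.13, -0.09 and -0.12 against 0.00, so those fits move all genes; it ran from 0.082 to 0.17 with libraries left out, and the number of positive genes from 27 to 31.

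Among the 22 genes named by rule, 5 turned sign, all with small estimates and no call; apart from the scaling shift, the cause was not tested. With library size alone and the FPKM fits with pseudocounts 1 and 0.1, pgam2 had -0.11, -0.11 and -0.11, g6pc1a.1 -0.066, -0.050 and -0.055, pgm1 -0.024, -0.031 and -0.031, and agla -0.045, -0.045 and -0.047. The hkdc1 estimate was 0.10 with limma-voom, 0.076 with the replicate block, and from -0.37 to 0.37 with libraries left out. With libraries left out, pgam2 ran from -0.10 to 0.12 and g6pc1a.1 from -0.020 to 0.24.

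Replicate numbers did not pair the libraries: deviations of same-numbered libraries correlated at -0.0675, -0.0889 and -0.100. The fit with the replicate number as a block called 0 of the 44 genes (smallest adjusted p = 0.160) and 2 of all genes, against 14 without it, and gave a median of 0.11 with 32 positive genes. Over all tested genes, against 14 calls, there were 5 with library size alone, 57 with no filter, 78 with robust variance estimation, 450 with DESeq2, 0 in the FPKM fits and 0 to 22 with libraries left out.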
